A study of Gallus gallus with 5 samples.

Results

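The step from otic-epibranchial progenitors (OEPs) to the thickened otic placode was described from 2 of the 5 RNA-seq libraries of the series. OEPs were taken at 5-6ss (5 to 6 pairs of somites, the blocks of trunk mesoderm by which chick embryos are staged) and the placode at 8-9ss. Both libraries were made from poly-adenylated RNA of Bovans Brown chick embryos, for which no genetic change or treatment is named, and each held about 100 pooled pieces of ectoderm. The region with *PAX2* expression beside the hindbrain was cut out after mesoderm and endoderm had been peeled off in dispase. The series also holds the pre-placodal region (PPR, labelled as Hamburger-Hamilton stage 6), a whole embryo library (3ss) and the invaginating placode (11-12ss), which serve below only to place the levels of single genes. Each condition is 1 library, so no p-value was computed. In pooled tissue, fewer cells of a type and less RNA per cell cannot be told apart.

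The otic placode is a patch of surface ectoderm that gives rise to the whole inner ear, including its sensory cells and the neurons that innervate it. It is set apart, under FGF and later WNT signals, from a common field whose other cells form the epibranchial placodes and epidermis. Between the stages compared here the flat ectoderm becomes a columnar epithelium, which then folds inwards to make the otic vesicle.

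Total counts were 26858887 at 5-6ss and 41478368 at 8-9ss, and the size factors, the scaling that equalises the typical locus of both libraries, were 0.809 and 1.24. A locus was taken as expressed with an RPKM (reads scaled to transcript length and depth) over 4 and a normalized count over 300 in at least 1 of the libraries, and as called when its normalized counts differed by more than 1.5-fold and the higher library passed both levels. Of 18365 loci with a count, 8281 were expressed. Among them 322 (3.89%) were called higher at 8-9ss and 413 (4.99%) lower, and these shares are the background for each gene group below. For a gene list, the median log2 fold change was taken over members whose normalized counts averaged 10 or more, and over all loci it was 0.00. Some genes are on more than 1 list, so that the same change can be counted in several of them. Values named counts are as deposited, before scaling by the size factors, whereas fold changes were taken from normalized counts unless RPKM is named. Pairs of values for 5-6ss and 8-9ss without a unit are counts of the kind last named in their paragraph, or else normalized counts. Intervals given with fold changes are exact (Clopper-Pearson) 95% binomial intervals of the counts, and cover counting error only, since reads from one PCR product were not told apart and no library was repeated.

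Most of the transcriptome hardly moved. For expressed loci, log2 fold changes had a median size of 0.17, and 90% were smaller than 0.55. Where loci did change, most did so modestly, with a median fold change of 1.80 among those that rose and 1.73 among those that fell. A difference of more than 2-fold was found at 121 higher and 117 lower loci, and of more than 4-fold at 20 and 21. Of the loci that rose, 114 had not reached the expression levels at 5-6ss, and of those that fell, 155 were no longer above them at 8-9ss. The counting interval lay wholly past 1.5-fold for 210 higher and 240 lower loci. Close to the threshold, *RPL17L* and *MFHAS1* (1.501-fold higher and 1.501-fold lower) were just inside, and *EVL* (1.499-fold) and *ANKLE1* (1.498-fold) just outside. Calls were more frequent among weakly expressed loci, with 8.09% higher and 12.1% lower in the lowest 20% of loci by mean normalized count against 1.45% and 2.11% in the top 20%.

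**Figure D1:**
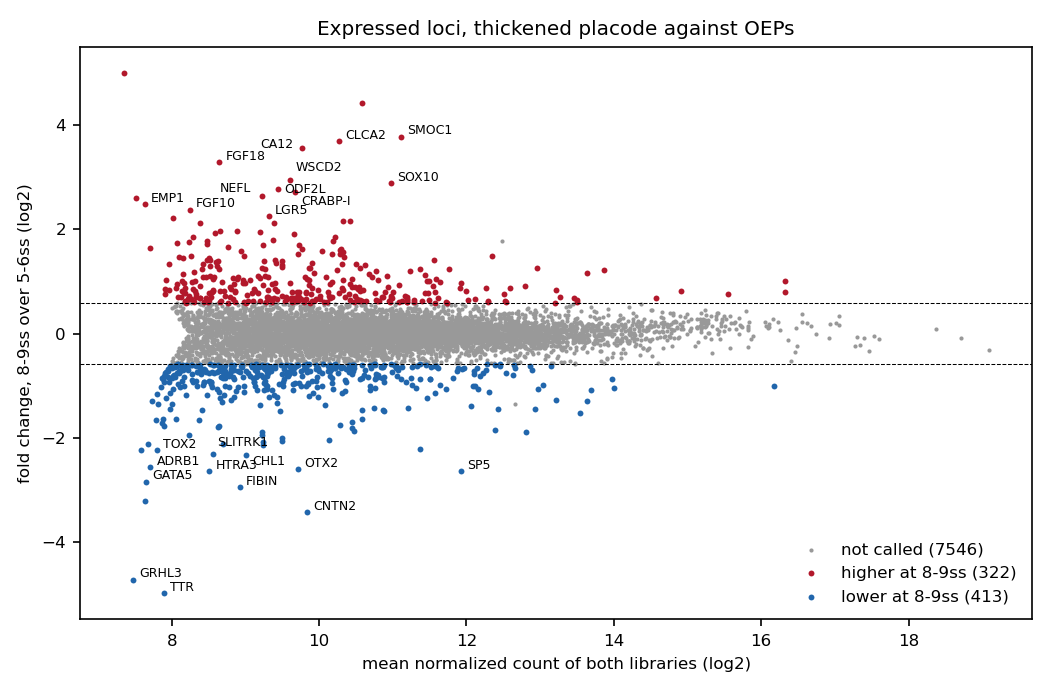
Fold change from 5-6ss to 8-9ss (log2) of each expressed locus against its mean normalized count (log2), with the 322 loci called higher in red, the 413 called lower in blue and the others in grey. Dashed lines mark 1.5-fold, and the 12 genes that rose most and the 12 that fell most carry their symbols.

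The genes that rose most included those for secreted factors, ion handling proteins, a transcription factor and cytoskeletal proteins. *SMOC1* (XLOC_013146), a secreted matrix protein that inhibits BMP signalling in *Xenopus*, had 243 counts at 5-6ss and 5101 at 8-9ss, with RPKM of 3.15 and 39.6. This was a 13.7-fold rise (interval 12.1 to 15.7). *CLCA2*, an accessory protein of chloride channels, went from 142 to 2828 counts (13.0-fold). *CA12*, a membrane carbonic anhydrase, went from 110 to 1986 counts (11.8-fold, but 7.34-fold in RPKM). All of them were under the expression levels at 5-6ss.

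*FGF18* rose 9.81-fold (7.55 to 13.0), from 60 to 899 counts, and *FGF10* 5.21-fold (4.12 to 6.67), from 79 to 629. Both are secreted FGF ligands. *CRABP-I*, which binds retinoic acid in the cytoplasm, rose 6.54-fold (from 175 to 1747 counts). *LGR5*, a receptor for R-spondins that sharpens WNT signals and marks stem cells of several epithelia, rose 4.76-fold (179 to 1301). The neurofilament gene *NEFL* rose 6.25-fold (133 to 1270). The remaining genes of this group were *SOX10* (389 to 4383 counts, 7.38-fold), *WSCD2* (144 to 1701 counts, 7.73-fold), the centrosomal protein gene *ODF2L* (143 to 1498, 6.86-fold) and the membrane protein gene *EMP1* (49 to 417, 5.57-fold). In RPKM the rise of *ODF2L* was smaller, at 4.04-fold. The largest rise at a locus without a symbol was at XLOC_016410, from 8 to 390 counts (31.9-fold, 16.0 to 74.5). That locus was among the 100 expressed loci with the fewest counts per unit of RPKM, where 14 were called higher and 9 lower.

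Along the time course these genes did not share one history. In deposited RPKM, *CA12* and *CLCA2* were near absent in the PPR (0.0106 and 0.0820), stood at 3.68 and 2.73 at 5-6ss, and went on to 57.6 and 50.2 at 11-12ss. *WSCD2* instead was at 12.3 in the PPR, 1.86 at 5-6ss, 14.4 at 8-9ss and 26.2 at 11-12ss, so that its rise followed a low point at 5-6ss. *LGR5* was higher at 8-9ss (7.40) than in the other 4 libraries, where it ranged from 1.38 to 6.37.

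The genes that fell most included regulators of epidermis and of the anterior head, a WNT target and neural adhesion molecules. *TTR*, the transthyretin gene that marks early endoderm and yolk sac, had 373 counts at 5-6ss and 18 at 8-9ss, a 31.6-fold fall (19.7 to 54.0). *GRHL3*, a grainyhead factor of the epidermis and its barrier, had 277 and 16 counts (26.4-fold, 16.0 to 46.9). *CNTN2*, an axonal adhesion molecule, went from 1357 to 194 counts (10.7-fold). None of these reached an RPKM of 4 at 8-9ss.

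*SP5*, a zinc finger factor that is directly induced by WNT/beta-catenin signalling, fell 6.24-fold (5.87 to 6.63) from 5410 to 1325 counts. It was the most abundant gene of this group, with an RPKM of 359 at 5-6ss, 73.8 at 8-9ss and 17.2 at 11-12ss. *OTX2*, a homeobox gene of the anterior head, fell 6.08-fold (1163 to 292 counts), and *GATA5*, a regulator of endoderm and heart, 7.16-fold (286 to 61). The adhesion molecule gene *CHL1* fell 5.01-fold (696 to 212), and *SLITRK1*, which codes for a neuronal transmembrane protein, 4.97-fold (511 to 157). The group was completed by *FIBIN* (697 to 138, 7.71-fold), the serine protease gene *HTRA3* (509 to 125, 6.22-fold), the adrenergic receptor gene *ADRB1* at XLOC_008284 (290 to 75, 5.90-fold) and *TOX2* (297 to 96, 4.72-fold). The other locus with the symbol *ADRB1*, XLOC_013661, was not called, with 107 and 117 counts, which after scaling by the size factors is lower at 8-9ss. At a locus without a symbol, the largest fall was at XLOC_000142, from 291 to 48 counts (9.26-fold, 6.80 to 12.8).

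*TTR*, *ADRB1*, *HTRA3*, *SLITRK1* and *SP5* had their highest RPKM of the 5 libraries at 5-6ss. *TTR* was at 0.793 in the PPR, 38.2 at 5-6ss, 1.49 at 8-9ss and 0.948 at 11-12ss, with 20.5 in the whole embryo. *CNTN2* and *OTX2* instead were already falling, from RPKM of 51.0 and 100 in the PPR to 12.2 and 17.7 at 5-6ss. *FIBIN* and *GATA5* were higher again in RPKM at 11-12ss (7.95 and 4.21) than at 8-9ss (3.44 and 1.84).

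**Figure D2:**
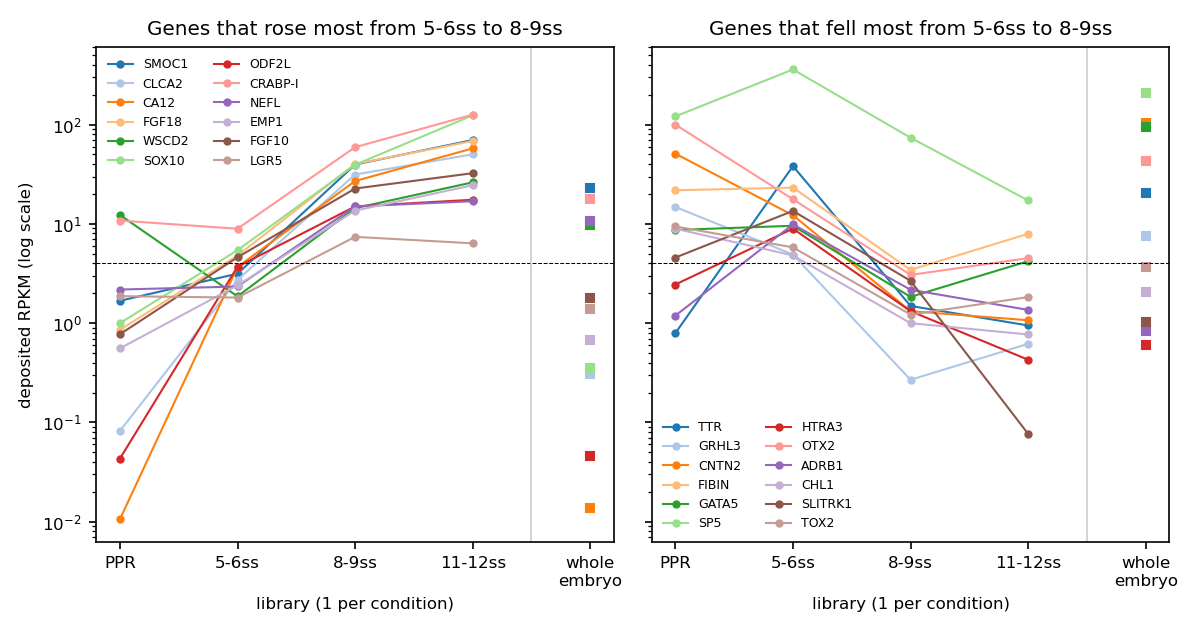
Deposited RPKM (log scale) of the 12 genes that rose most (left) and the 12 that fell most (right) between 5-6ss and 8-9ss in the PPR and the 3 otic libraries, with the whole embryo as squares and an RPKM of 4 as the dashed line. *CA12* and *CLCA2* start near 0 in the PPR (0.0106 and 0.0820), whereas *SP5* falls from 359 at 5-6ss to 17.2 at 11-12ss.

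Of 56 otic regulators listed, 52 had a locus and 43 were expressed. Of these, 10 rose and 6 fell, and the median log2 fold change was -0.02, next to 0.00 over all loci. The list also holds factors of the anterior head, non-neural ectoderm and neural plate border, such as *OTX2*, *GATA2* and *GHOX-7*. Its counts and median therefore do not describe otic factors alone. Part of this list consists of factors that the study picked from the same libraries, so that it is not independent evidence of a direction. *SOX10*, a SoxE factor of the otic placode and neural crest, had normalized counts of 481 at 5-6ss and 3547 at 8-9ss (7.38-fold, 6.65 to 8.21). *SOHO-1*, a homeobox gene of chick sensory organs, went from 500 to 2237 (4.47-fold, 4.03 to 4.97). *SOX2*, which in the ear is needed for the sensory patches, went from 242 to 929 (3.84-fold, 3.29 to 4.49). In RPKM, *SOX2* was higher in the PPR (27.1) than at 5-6ss (10.3), and stood at 43.1 at 8-9ss.

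*LMX1A*, a LIM homeobox factor, rose 2.31-fold (1457 to 3364 normalized counts). *PRDM12* rose 1.96-fold, *ZBTB16* 1.88-fold, and the transcriptional co-activator genes *EYA4* and *EYA1* 1.74-fold and 1.58-fold. By the deposited RPKM, *EYA4* and *EYA1* stayed just under the threshold, at 1.45-fold and 1.47-fold. *IRX4* rose 2.06-fold (1.75 to 2.43) on 199 and 626 counts. Its RPKM of 4.53 and 1213 did not follow the counts, and its locus was also among the 100 with the fewest counts per unit of RPKM.

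Among those that fell were factors of surface ectoderm, the neural plate border and the head. Besides *OTX2*, *GATA2*, a factor of non-neural ectoderm, fell 2.80-fold (1041 to 372 normalized counts) and *GHOX-7*, the chick *MSX1* gene of the neural plate border, 2.76-fold (2254 to 816). Otic factors fell too, since the study names *SALL1* and *TEAD3* among late otic placode transcripts. *SALL1* fell 2.1-fold (10870 to 5176), with an RPKM of 75.3 and 35.3, beside 131 in the PPR and 81.5 in the whole embryo. *DLX6* (1.62-fold) and *TEAD3* (1.60-fold) were closer to the threshold, and *DLX6* had an RPKM fold change of 1.35.

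The 27 expressed members that were not called included factors commonly used to mark the otic field. *PAX2* had 4850 and 5165 normalized counts, a ratio of 1.06 (1.02 to 1.11). *GBX2* was lower at 8-9ss by 1.20-fold, *EYA2* by 1.14-fold, *SALL4* by 1.21-fold, *TFAP2A* by 1.33-fold, *ZNF385C* by 1.20-fold, *DLX5* by 1.18-fold and *ETV5* by 1.10-fold. *SOX8* (1.31-fold), *SOX13* (1.32-fold), *GATA3* (1.36-fold), *DLX3* (1.37-fold), *MEIS2* (1.38-fold), *RERE* (1.35-fold), *ZNF521* (1.27-fold) and *ETV4* (1.23-fold) were higher, all by less than 1.5-fold with counting intervals above 1. *MYB* was at 1.04-fold with an interval from 0.929 to 1.17. *LMX1B* was lower by 1.07-fold with an interval from 0.955 to 1.19. For both, counting error alone covers no difference. With 1 library per stage, the other small shifts of this paragraph cannot be told from variation between libraries either. *MEIS1*, *SOX9*, *IRX1*, *ZFHX3*, *JAG1*, *IRX5*, *SIX4* and *IRX2* were lower by between 1.08-fold and 1.26-fold.

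The other 9 members with a locus did not reach the expression levels. *HMX1*, a homeobox gene of the ear, had 29 and 251 counts, a ratio of 5.67 (3.85 to 8.64), and was left uncalled only by its count. *TBX2* had 29 and 101 counts, *SIX2* 54 and 157, *TBX3* 299 and 517, *BACH2* 109 and 133, *OTX1* 26 and 33, and *MSX2* 145 and 62. *HMX3* had 0 and 10 counts and *NEUROD1*, a gene of neuroblasts, 1 and 0.

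Factors listed as epibranchial, after the placodes that form above the branchial arches, went in both directions. The study describes *TFAP2E* and *PRDM1* (here *BLIMP-1*) as broadly expressed at first and confined to the epibranchial territory only later. It shows *NR2F2* and *VGLL2* in epibranchial cells at a stage after both libraries. The values below therefore do not describe epibranchial cells alone. Of 11 with a locus, 7 were expressed, 3 rose and 1 fell. The orphan nuclear receptor genes *NR2F2* and *NR2F1* rose 3.08-fold (428 to 1319 normalized counts, 2.75 to 3.47) and 2.73-fold (194 to 530, 2.29 to 3.27), and *TFAP2E* 1.52-fold (1720 to 2615, 1.43 to 1.62). *FOXI2*, a forkhead factor of cranial ectoderm, fell 1.97-fold (11137 to 5657). *SOX3* (1.07-fold) and *BLIMP-1* (4355 and 4345) barely differed, and *ISL1* was at 1.42-fold. Under the expression levels, *VGLL2* had 65 and 175 counts, *PAX3* 121 and 278, and *KLF7* 78 and 62. After scaling, their log2 fold changes were 0.82, 0.59 and -0.94. *PAX3* is on this list although the study names it a trigeminal marker. The text of the study places *NR2F2* in the epibranchial region but does not name *NR2F1*.

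**Figure D3:**
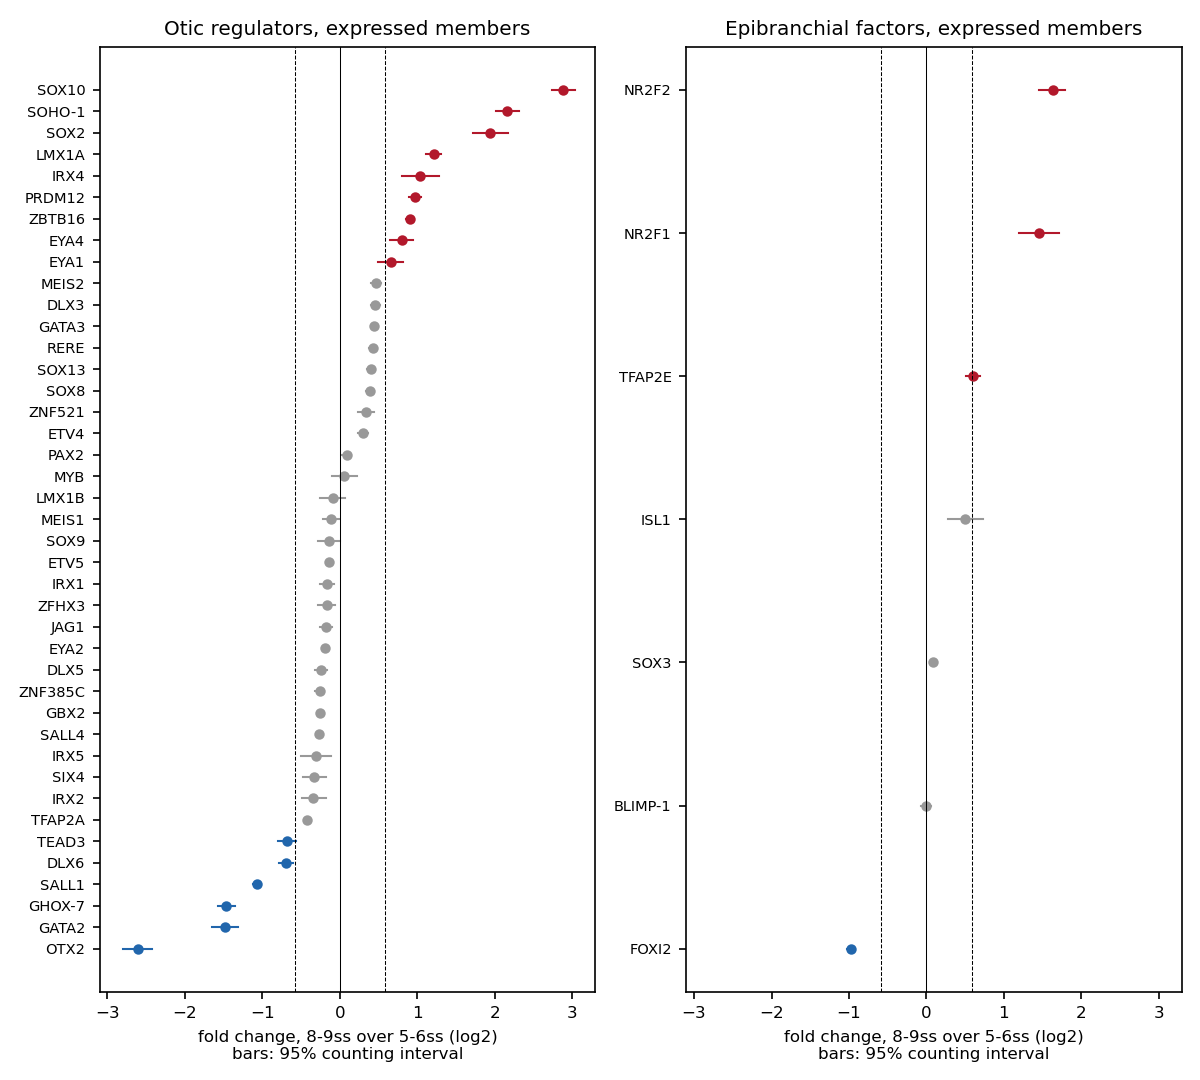
Fold change from 5-6ss to 8-9ss (log2, dots) with its 95% counting interval (bars) for 41 of the 43 expressed otic regulators (left) and the 7 expressed epibranchial factors (right), red where called higher, blue where called lower and grey otherwise, with 1.5-fold as dashed lines. *SOX10* stands at one end (7.38-fold higher) and *OTX2*, a listed gene of the anterior head, at the other (6.08-fold lower), and *PAX2* is near no change.

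In FGF signalling 3 ligand genes rose and a receptor gene fell. Of 22 expressed genes 3 rose and 4 fell. The 3 that rose were all ligand genes, *FGF18*, *FGF10* and *FGF8*, the last from 614 to 1891 normalized counts (3.08-fold, 2.79 to 3.40). A ligand gene also fell, *FGF16*, by 1.60-fold in normalized counts (315 to 197) and 1.36-fold in RPKM. *FGFR2*, a receptor through which FGF10 acts in other epithelia, fell 3.11-fold (2322 to 746, 2.87 to 3.37). *FGFR1* stayed at its level (17809 and 17657) and at 8-9ss had an RPKM of 297 against 6.30 for *FGFR2*. Downstream, the ETS factor gene *ER81* fell 2.0-fold and *FLRT2* 1.89-fold, while the feedback phosphatase gene *DUSP4* had 848 and 845.

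In the WNT pathway, 6 of 43 expressed genes rose and 11 fell. Without regard to the threshold, 21 of the 43 were higher at 8-9ss and 22 lower, and the median log2 fold change of the list was -0.10. Some genes commonly used as readouts of WNT/beta-catenin signalling fell, *SP5* most, *AXIN2* by 1.77-fold (2730 to 1543, 1.66 to 1.88) and *NOTUM* by 1.77-fold (1451 to 820). *TCF1*, the chick *TCF7* gene and a nuclear partner of beta-catenin, fell 2.26-fold. *LGR5*, itself a WNT target in the intestine, went the opposite way, and the genes named here do not describe the whole list. Receptor genes were exchanged. *FZD7* fell 2.06-fold (22024 to 10671), whereas *FZD1* rose 2.01-fold (1915 to 3846) and *FZD4* 1.96-fold (344 to 674). In RPKM *FZD7* still stood highest of them at 8-9ss, at 173 against 78.2 and 7.49. *KREMEN1*, a receptor of Dickkopf inhibitors, rose 4.35-fold (251 to 1091), the secreted inhibitor gene *SFRP2* 1.59-fold and *DACT2* 1.55-fold. The polarity genes *CELSR1* and *ROR1* fell 1.80-fold and 1.79-fold. *LRP4* (995 and 990) and *FZD8* (808 and 818) were the members closest to no change.

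BMP and TGF-beta signalling had 3 genes that rose and 4 that fell among 34 expressed. Without regard to the threshold, 19 of the 34 were higher at 8-9ss and 15 lower. The median log2 fold change of the list was 0.03, so that the genes named here do not describe the whole list. *BMP4* fell 2.81-fold (2793 to 993 normalized counts, 2.62 to 3.02), as did *GHOX-7* and the inhibitory SMAD gene *SMAD6* (1.57-fold), which are induced by BMP in many tissues. *LTBP2*, a matrix protein related to the carriers of latent TGF-beta, fell 2.05-fold. The genes that rose were *SMOC1*, the secreted BMP antagonist gene *NBL1* (2.89-fold, 644 to 1860) and *CVG1*, a ligand of the GDF type (1.78-fold). The signal transducer gene *SMAD1* was at 1.02-fold.

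Notch signalling had 4 genes that rose and 2 that fell among 25 expressed. The repressor genes *HES1* (1003 to 1877, 1.87-fold) and *HEY1* (4368 to 8027, 1.84-fold), both common Notch targets, rose with *DTX2* (1.52-fold) and the acetyltransferase gene *KAT2B* (1.5-fold, interval 1.32 to 1.72, and 1.39-fold in RPKM). The ligand gene *DLL1* fell 2.02-fold (1205 to 597) and *HES4* 1.58-fold (1.41-fold in RPKM). *RFNG* and *PSEN2* were the closest to no change.

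The small groups for retinoic acid and hedgehog signalling had 11 and 10 expressed members. *CRABP-I* and the receptor gene *RXRG* (1.95-fold, 182 to 354) rose and *CYP26A1*, whose enzyme degrades retinoic acid, fell 2.05-fold (588 to 287). *CRABP2*, the more abundant binding protein by RPKM (2116 at 8-9ss against 59.2 for *CRABP-I*), differed by 1.07-fold. Of the hedgehog genes 1 rose and 1 fell, and the one that rose was the transcription factor gene *GLI2* (1.68-fold). Of 2 expressed HOX genes 1 was called lower, and *HOXA2*, a HOX gene of the hindbrain beside the otic region, was at 1.05-fold.

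Transcripts of the surface epithelium were mostly lower at 8-9ss. Of 27 expressed genes 9 fell and 1 rose, 22 of the 27 were lower at 8-9ss, and the median log2 fold change was -0.37. Over all expressed loci, 4120 of 8281 were lower. Those that fell included the regulators *GRHL3*, *GRHL2* (1.64-fold) and *TFAP2C* (2.0-fold, 5927 to 2963 normalized counts). The keratin genes *KRT19* and *KRT18* both fell 1.83-fold (20893 to 11434, and 3431 to 1877). *ASTL*, an astacin-like protease gene, fell 3.61-fold (8385 to 2323, 3.45 to 3.77), and its RPKM went on from 61.7 to 14.3 at 11-12ss. At junctions, *CLDN4* fell 1.68-fold and the plakin gene *PPL* 1.67-fold. *CGN*, which codes for cingulin of tight junctions, fell 2.08-fold in counts but not in RPKM (110 and 106). The desmosomal cadherin gene *DSG2* rose 1.53-fold, with an RPKM fold change of 1.43, and *TACSTD1*, the chick *EPCAM* gene, was unmoved at 1.06-fold.

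Genes of steroid synthesis were also mostly lower, by small steps. Of 30 expressed genes 27 were lower at 8-9ss, 7 of them past the threshold, and the median log2 fold change was -0.27. *CYP51A1* fell 1.73-fold (8024 to 4641 normalized counts, 1.67 to 1.79), *SC4MOL* 1.72-fold (5546 to 3232), the epoxidase gene *SQLE* 1.62-fold (6117 to 3770) and the squalene synthase gene *FDFT1* 1.59-fold (7941 to 4998). *LSS* and *SC5D* fell 1.52-fold each, and by RPKM 1.48-fold and 1.36-fold, under the threshold. *ELOVL6*, which elongates fatty acids rather than sterols, rose 1.58-fold, with an RPKM fold change of 1.48, so that by RPKM 0 genes of the list were called higher. *LBR* and *SCAP*, a sterol reductase and the sterol sensor, differed least. Summed over the list, CPM (counts per 1000000 counts of the library) went from 5026 to 3930 and were 4028 at 11-12ss.

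**Figure D4:**
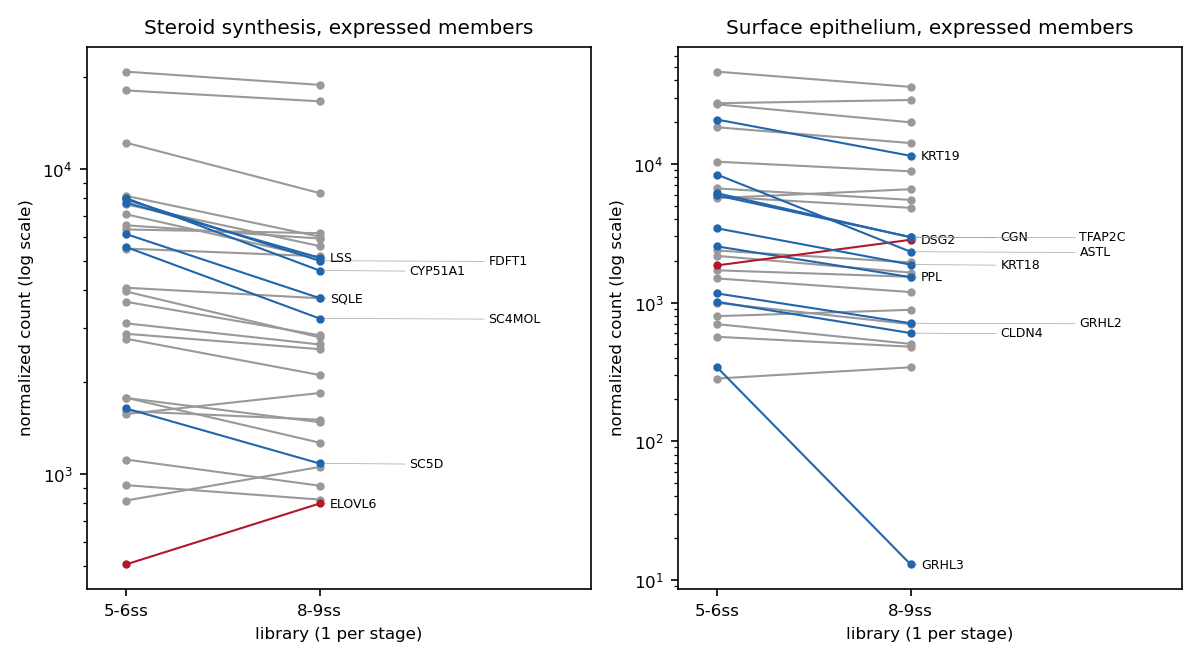
Normalized counts (log scale) at 5-6ss and 8-9ss of expressed members of the steroid synthesis list (29 of 30 genes, left) and of the surface epithelium list (27 genes, right), 1 line per gene, red where called higher and blue where called lower, with their symbols. Most lines slope down, 26 of 29 and 22 of 27, and *GRHL3* falls furthest.

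In the lists of cadherins and catenins and of integrins and focal adhesion, the called genes were all higher at 8-9ss. Most expressed members of these lists were lower without being called, 9 of 14 and 17 of 29. The adhesion molecule genes *CNTN2* and *CHL1*, which fell, are outside these lists. *CDH2*, the N-cadherin gene, was the only called gene of 14 expressed cadherins and catenins, with 614 and 1877 normalized counts (3.06-fold, 2.77 to 3.37). *CTNND1* and *CTNNA1* were at nearly the same level in both libraries. Of 29 expressed integrin and focal adhesion genes 5 rose and 0 fell. *MYLK*, the myosin light chain kinase gene, rose 2.79-fold (2751 to 7679), *ITGA4* 2.36-fold (2075 to 4890) and *ITGB3* 2.33-fold (8988 to 20943), followed by the kinase genes *PAK1* (1.80-fold) and *MAPK9* (1.58-fold, and 1.39-fold in RPKM). The median of this list was -0.03, next to 0.00 over all loci.

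Matrix genes were exchanged in both directions, 7 of 37 expressed higher and 9 lower. *FN1*, fibronectin, was the most abundant of those that fell, from 99211 to 49264 normalized counts (2.01-fold, 1.99 to 2.04). *HAPLN1*, which links hyaluronan to proteoglycans, fell 4.62-fold (4350 to 941), and *FBN2* and the basement membrane gene *NID1* fell 1.97-fold and 1.87-fold. *EMILIN2* fell 1.82-fold and *COL9A3* 2.04-fold. Several fibrillar collagen genes rose, *COL11A1* 3.78-fold (339 to 1281), *COL27A1* 2.76-fold (687 to 1896), *COL5A2* 1.80-fold, *COL5A1* 1.68-fold and *COL2A1* 1.61-fold (18711 to 30176). Each of these 5 collagens had a still higher RPKM at 11-12ss. The proteoglycan gene *VCAN* had 8017 and 7997.

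Guidance and ion transport genes also went in both directions. Among 35 expressed guidance genes 5 rose and 7 fell. *EPHA5* rose 3.01-fold (245 to 736), *EPHA4* 1.77-fold, and the semaphorin genes *SEMA7A* 2.21-fold, *SEMA3D* 1.91-fold and *SEMA4D* 1.83-fold, the last with an RPKM fold change of 1.48. *EFNB2*, an ephrin ligand gene, fell 2.87-fold (17614 to 6135) and had an RPKM of 20.5 at 11-12ss after 183 and 58.0. The netrin receptor gene *UNC5B* fell 2.07-fold and the ligand gene *NTN1* 1.78-fold. Among 19 expressed transport genes 4 rose, *CLCA2*, *CA12*, the carbonic anhydrase gene *CA2* (2.51-fold, 142 to 356) and the potassium channel gene *KCNK1* (1.64-fold). Those that fell were *ATP1B1*, a subunit of the sodium pump (1.73-fold), the epithelial sodium channel gene *SCNN1B* (1.70-fold) and *SLC26A5* (1.61-fold).

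Some transcripts known from the later inner ear rose. In a list of structural and hearing genes that was added after values had been seen, and whose counts are a description only, 12 of 45 loci were expressed, 8 rose and 3 fell. *USH1C* (harmonin of hair bundles) went from 74 to 526 counts (4.65-fold, 3.64 to 6.02), *OTOG* (otogelin of the membranes over sensory cells) from 240 to 1266 (3.45-fold) and *OTOL1* (otolin of otoconia) from 82 to 393 (3.14-fold). *ESPN*, an actin-bundling protein of stereocilia, rose 1.96-fold, and the receptor genes *RET* and *NGFR* 3.01-fold and 2.30-fold. *OTOL1* had an RPKM of 4.39 at 8-9ss and 1.87 at 11-12ss, whereas *USH1C* and *OTOG* went on to 13.7 and 18.0. *MYO3B*, a myosin of hair bundles, fell 4.37-fold and *SLC26A5*, the prestin gene, 1.61-fold. Summed CPM of the list were 226 at 5-6ss, 334 at 8-9ss and 542 in the invaginating placode.

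Genes of pluripotency and the germ line, a second list added after values had been seen, fell in 7 of 13 expressed members and rose in 1. These counts are a description only. The called members not named in this paragraph, among them the one that rose, also belong to groups described above and are counted there too. *POUV*, the chick homologue of *OCT4*, went from 11462 to 4214 normalized counts (2.72-fold, 2.63 to 2.81), and its RPKM was 907 in the PPR, 496 at 5-6ss, 190 at 8-9ss and 68.0 at 11-12ss. *PIWIL1* fell 2.18-fold, *KLF5* 1.65-fold and the telomerase gene *TERT* 1.57-fold. *LIN28B*, a regulator of let-7 microRNAs, was at 1.02-fold.

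Genes of proliferation and glycolysis were called lower about as often as all expressed loci (4.99%), and none was called higher. Of 41 expressed cell cycle genes 0 rose and 2 fell, *CDC6* by 1.59-fold (1.27-fold in RPKM) and *CCND1*, a cyclin gene that responds to growth signals, by 1.53-fold (3374 to 2203, 1.45 to 1.62). *CCNB2* and *GMNN* had almost the same normalized counts at both stages. Of 23 expressed genes of glucose uptake and glycolysis only *PDK1* was called, 1.51-fold lower.

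**Figure D5:**
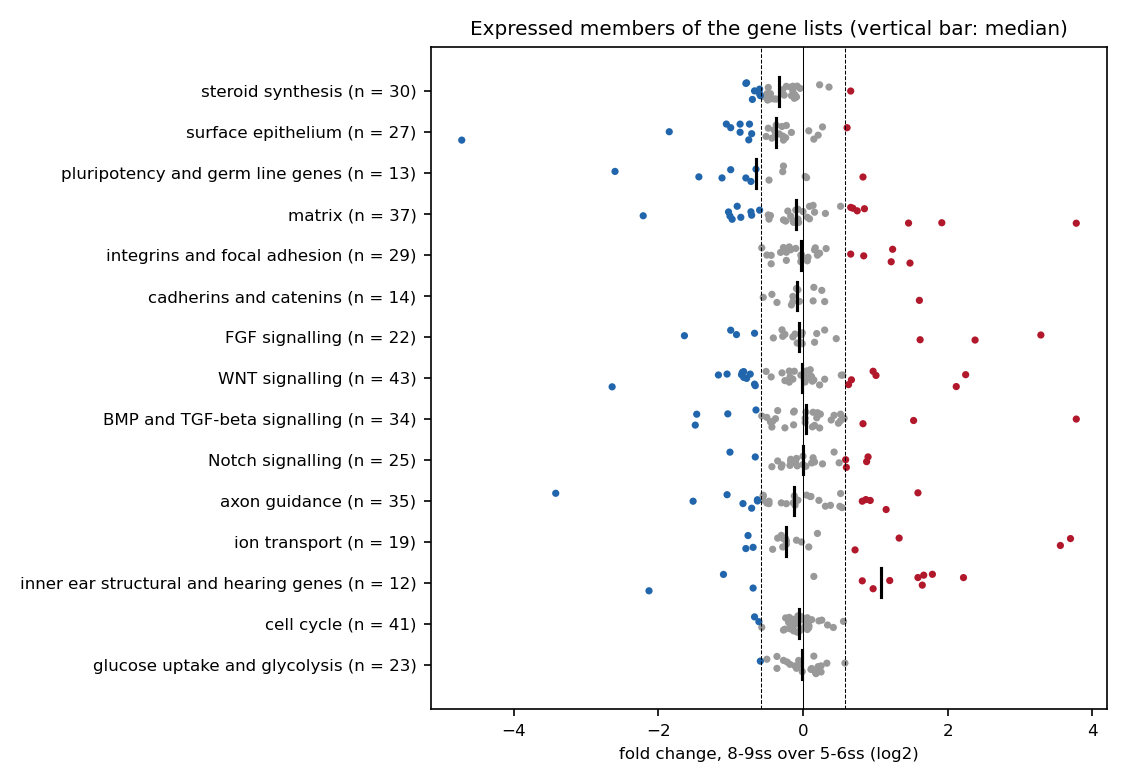
Fold change from 5-6ss to 8-9ss (log2) of the expressed members of 15 gene lists, 1 dot per locus in red where called higher, blue where called lower and grey otherwise, with the median of the expressed members as a vertical bar and 1.5-fold as dashed lines. Cell cycle genes (0 higher and 2 lower of 41) keep close to no change, and surface epithelium genes (1 higher and 9 lower of 27) lie mostly on the left.

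Markers of tissues beside the placode were read in the same way, since they could come with the dissection. Of 7 expressed neuronal genes 4 rose, *NEFL*, *NEFM* (3.90-fold, 164 to 641 normalized counts), *ELAVL4* (1.76-fold) and *GAP43* (1.70-fold in counts, 1.43-fold in RPKM), and 1 fell, *CNTN2*, while *TUBB3* was lower by 1.10-fold. Summed over that list, CPM were 845 and 791. Of 5 expressed neural crest genes 3 fell, *TFAP2B* (4.34-fold), *GHOX-7* and *SNAI2* (1.58-fold), and CPM of that list went from 289 to 194. The endoderm list fell from 141 to 66.6 CPM, with 2 of its 3 expressed genes lower, *TTR* and *APOA1* (3.65-fold, 2240 to 614 normalized counts). Of its 16 loci 2 were at 0 at 5-6ss and 3 at 8-9ss, and *FGB* and *GATA6*, named after their values were seen, had 147 and 90 counts at 5-6ss and 49 and 46 at 8-9ss. *SHH*, which was listed as a marker for both endoderm and notochord, had 5 and 15 counts. Whether endoderm in the 5-6ss pieces contributed to the falls of *TTR*, *APOA1* and *GATA5* was not tested. Summed CPM were 129 and 139 for blood and vessel, 59.2 and 56.3 for mesoderm, 24.6 and 24.7 for notochord and 49.3 and 37.2 for neural tube. Of 17 loci of the mesoderm list 1 was expressed, and it was not called. Its members *TBX6*, *MSGN1* and *TCF15* were not above an RPKM of 4 at either stage. Of 11 expressed stress genes *HMOX1* (2.74-fold), *DUSP1* (2.09-fold) and *HSP70* (1.64-fold) rose and *KLF6* fell 1.83-fold, and the part of handling in these was not tested. Leaving out the loci of all these tissue lists took away only their own calls, so that 318 loci remained higher and 406 lower. These numbers cannot show whether other loci came with these tissues.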

How the data were processed

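Poly-adenylated RNA of 5 conditions was sequenced, 1 library each, and 2 libraries were compared here. The authors mapped reads with TopHat2 to the chicken genome (galGal4), merged Cufflinks assemblies into loci, and deposited the number of reads per locus as raw counts, without normalization. They also deposited RPKM from Cuffdiff, which scales reads by length and depth. Reads were single or paired, and which library had which is not given in the sources used here.

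Median-of-ratios size factors were computed on the 2 libraries (Python 3.11.15 with scipy 1.17.1 and pandas 2.3.3). Thresholds (1.5-fold, RPKM over 4, normalized count over 300 in the higher library) follow the study. In fold changes, 3 was the smallest count used. Total counts were 26858887 and 41478368, which leaves small counts imprecise. Symbols came from the files, which gave 13879 loci one, with 274 symbols on more than 1 locus. Counting is not stated to use strand, so overlapping genes cannot be told apart. List medians cover members averaging 10 or more normalized counts, beside counts of calls, with no set test. Of the symbols in the 28 lists, 172 had no locus and were not analysed here. Named were the 12 genes that rose most and the 12 that fell most, all otic and epibranchial members, and in each other list up to 6 called in each direction and up to 2 nearest to no change. The members and lists were chosen with earlier results of these data known, and 2 lists were added after values were seen. Code was tested on simulated data. Alternatives included edgeR 4.0.16 TMM factors (R 4.3.3), other scalings, thresholds, RPKM and thinning. Results of some genes that this rule names are not reported here. A planned search of promoters for motifs was not run.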

Additional observations from a re-analysis of the deposited data

How the results depend on the processing

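With 1 library per stage, variation between embryos, dissections and library preparations is not measured. At this depth 112 calls higher at 8-9ss and 173 calls lower had a counting interval that reached 1.5-fold. The main counts were 322 loci higher and 413 lower. With fold changes taken from RPKM they became 1042 and 928, without the count threshold 857 and 953, with a fold change over 2 they were 121 and 117, and with intervals wholly past 1.5-fold 210 and 240. The first of these settings also drops the count threshold. Size factors over all 5 libraries, TMM, total count scaling, no RPKM threshold, symbols only and thinning kept both numbers within 1.5 times (276 to 364 higher, 348 to 500 lower). In 2 settings chosen after seeing the data, loci were only left out, so that the numbers could only fall. They were 308 and 404 without the 100 loci of fewest counts per RPKM, and 318 and 406 without marker lists of other tissues. Of 162 called loci of the lists, 162 had the same call with TMM, 161 with all libraries, 160 with total counts and 143 with RPKM, and none of them changed sign under these 4 settings. Among the calls that ended with RPKM were those of *DLX6*, *EYA1*, *EYA4*, *SC5D*, *ELOVL6*, *LSS*, *TNC*, *MAPK9*, *DSG2*, *CGN*, *FGF16*, *DACT1*, *KAT2B*, *HES4*, *EPHA2*, *SEMA4D*, *CDC6* and *GAP43*, at RPKM fold changes of 1.05 (*CGN*) to 1.48, and the cause was not tested.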

Other observations

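Some of the called genes lie next to each other in the genome. With the gene order of RefSeq (assembly GRCg7b, used for order only because the files rest on galGal4), 586 of the 624 called loci with a symbol were placed. Among neighbouring protein-coding genes, 41 pairs had both members called, 31 of them in the same direction and 10 in opposite directions, and 1 pair overlapped. No share was computed for pairs of other genes, and the pairs named here were chosen after their values were seen.

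The genes *CLCA2* (142 to 2828 counts), *ODF2L* (143 to 1498) and *COL24A1* (523 to 2372) follow each other and rose 13.0-fold, 6.86-fold and 2.97-fold. *COL24A1*, a fibrillar collagen gene, is outside the lists described above. *USH1C* and *OTOG* are neighbours, as are *RXRG* and *LMX1A* (1.95-fold and 2.31-fold higher) and the neurofilament genes *NEFL* and *NEFM* (6.25-fold and 3.90-fold higher). *SOX10* lies between *PICK1* (1590 to 3773 counts, 1.55-fold higher) and *RPB6* (3814 to 13872, 2.38-fold higher). *SP5* and *MYO3B* fell 6.24-fold and 4.37-fold, and at 11-12ss their RPKM were 17.2 and 0.531 after 73.8 and 2.49 at 8-9ss. In contrast, *DSG2* rose 1.53-fold and its neighbour *TTR* fell 31.6-fold. Whether reads that run past the end of one gene were counted for the next was not tested.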
